A study of Mus musculus with 20 samples.

Results

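Immediate early genes are genes that a cell transcribes within minutes of a stimulus, before any new protein has been made. The 10 described here were *Fos*, *Fosb* and *Fosl2* of the FOS family, *Jun* and *Junb* of the JUN family, *Egr1* and *Egr2*, the stress-induced gene *Atf3*, *Nr4a1* and *Npas4*. They were listed by symbol and not by a rule on measured values, but with earlier results of these data known. All 10 were found, by symbol and NCBI gene number, in each of the 4 deposited expression tables. The 4 tables share 18754 genes, out of 19368 in the OIR tables and 19102 in the tables of injected eyes. The NCBI gene numbers are 14281 for *Fos*, 14282 for *Fosb*, 14284 for *Fosl2*, 16476 for *Jun*, 16477 for *Junb*, 13653 for *Egr1*, 13654 for *Egr2*, 11910 for *Atf3*, 15370 for *Nr4a1* and 225872 for *Npas4*.

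These genes respond quickly because the factors that switch them on, such as CREB on the cAMP response element (CRE) and the serum response factor, are already present in a resting cell and need only be phosphorylated or joined by a partner. Calcium entry, growth factors, cytokines and stress all feed into those factors. FOS and JUN proteins pair to form AP-1, EGR proteins are zinc finger factors, NR4A1 is an orphan nuclear receptor, NPAS4 answers to neuronal activity, and ATF3 is made in the integrated stress response and in injured neurons. In the retina several of them are known to respond to light, to injury and to manipulation of the tissue.

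RNA was sequenced from single whole retinas of male and female C57BL/6J mice, 5 libraries in each of 4 groups. *Atf6*+/+ OIR and *Atf6*-/- OIR mice had passed through oxygen-induced retinopathy (OIR), in which pups stay with their mothers in 75% oxygen from postnatal day (P) 7 to P12 and then breathe room air for 5 days, and their retinas were taken at P17, when vessel overgrowth is greatest. Saline-treated and Ceapin-A7-treated mice were *Atf6*+/+ and had no oxygen exposure, and both of their eyes were injected at P30 with 1 µL into the vitreous, through a 33-gauge needle under ketamine and xylazine, 24 h before the retina was taken. Ceapin-A7, a small molecule that holds ATF6 in the endoplasmic reticulum, was given at 10 µM. The OIR pair asks what loss of ATF6 does during vessel overgrowth, and the injected pair asks what its block does without OIR.

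The *Atf6*-/- mouse lacks ATF6 protein in every cell through a premature stop codon. *Atf6* RNA did not tell the genotypes apart: it averaged 14.95 ± 0.618 FPKM (SD, n = 5) in *Atf6*+/+ OIR and 15.2 ± 1.52 FPKM (SD, n = 5) in *Atf6*-/- OIR retinas. These values therefore give no check of the genotype labels. The labels call the injected control PBS, the protocols describe it as saline with vehicle, and the vehicle is named differently in the labels (dimethyl sulfide) and the methods (dimethyl sulfoxide). In the methods the percentage of dimethyl sulfoxide is higher for the saline control than for Ceapin-A7. Compound and vehicle dose thus differ together between the injected groups and cannot be told apart. No uninjected P30 retina and no P17 retina kept in room air was analysed here. Age, oxygen exposure, injection and anaesthesia differ together between the OIR pair and the injected pair and cannot be told apart. Whether any libraries of a group came from the same mouse is not given in the sources used here, so the p-values measure only the spread between these libraries, part of which may be technical. FPKM summed to between 410599 and 456250 per library. Relative depth, read from the value of 1 fragment in rarely detected genes, was 1.0 in 18 libraries, 0.963 in *Atf6*-/- OIR replicate 4 and 0.686 in Ceapin-A7-treated replicate 3. No rod, cone, bipolar, amacrine, ganglion cell, horizontal or Muller glia marker was at 0 in any library.

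Immediate early genes are known for CREB and stress-responsive sites close to their starts. The 250 bases upstream of the RefSeq start are shown for 5 members on which the results turn, *Fos*, *Nr4a1*, *Jun*, *Junb* and *Atf3*. The sequences are RefSeq's for GRCm38.p6, an older build than the GRCm39 to which the authors aligned, and are written 5′ to 3′ on the strand of the gene. Capitals mark the CRE core TGACG, read on either strand (as CGTCA on the other), the CRE variant TGACNTCA in *Jun* and the C/EBP-ATF element TGATGNAA in *Atf3*, where it lies on the other strand. The windows are chr12:85473640-85473889 (plus strand), chr15:101266596-101266845 (plus strand), chr4:95052223-95052472 (minus strand), chr8:84978749-84978998 (minus strand) and chr1:191183334-191183583 (minus strand).
Fos: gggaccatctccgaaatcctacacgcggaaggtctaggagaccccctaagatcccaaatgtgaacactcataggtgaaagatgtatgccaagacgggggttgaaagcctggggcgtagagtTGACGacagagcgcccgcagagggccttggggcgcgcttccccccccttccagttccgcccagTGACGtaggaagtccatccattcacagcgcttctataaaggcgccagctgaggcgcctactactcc
Nr4a1: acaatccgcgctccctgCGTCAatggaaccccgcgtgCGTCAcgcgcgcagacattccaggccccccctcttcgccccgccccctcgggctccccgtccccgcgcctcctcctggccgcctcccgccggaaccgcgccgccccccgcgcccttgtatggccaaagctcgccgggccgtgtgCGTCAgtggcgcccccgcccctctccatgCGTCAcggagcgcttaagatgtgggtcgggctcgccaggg
Jun: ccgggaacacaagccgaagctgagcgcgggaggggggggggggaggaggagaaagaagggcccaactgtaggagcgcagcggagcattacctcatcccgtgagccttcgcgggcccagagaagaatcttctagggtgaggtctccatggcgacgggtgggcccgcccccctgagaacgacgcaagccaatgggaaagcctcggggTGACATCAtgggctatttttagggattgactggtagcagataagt
Junb: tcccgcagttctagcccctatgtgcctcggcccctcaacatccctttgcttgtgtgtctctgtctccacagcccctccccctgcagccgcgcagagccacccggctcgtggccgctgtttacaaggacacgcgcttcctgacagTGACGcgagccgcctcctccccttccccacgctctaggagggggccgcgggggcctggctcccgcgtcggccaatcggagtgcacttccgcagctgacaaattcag
Atf3: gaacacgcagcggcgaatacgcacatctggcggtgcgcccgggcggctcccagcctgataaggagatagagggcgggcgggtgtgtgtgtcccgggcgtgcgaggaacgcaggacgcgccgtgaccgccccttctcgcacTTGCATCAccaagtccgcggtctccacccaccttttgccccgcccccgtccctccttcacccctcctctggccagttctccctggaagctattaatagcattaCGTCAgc

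*Fos* carried the CRE core at 129 to 125 and at 66 to 62 bases upstream of its start, the nearer of them the site through which CREB is known to act, and a TATAAA at 33 to 28. *Nr4a1* had 4 cores, all on the other strand, at 233 to 229, 213 to 209, 69 to 65 and 40 to 36 bases upstream. *Junb* had 1 at 106 to 102, and *Atf3* had 1 at 7 to 3 together with the C/EBP-ATF element, the kind of site that ATF4 binds, at 110 to 103. *Jun* had no CRE core but the variant, which AP-1 and ATF2 pairs are known to bind, at 45 to 38. Among the 9 members searched (*Egr1* was not analysed here), 7 had the CRE core in at least 1 of their windows, beside 17.8% of all 32851 promoter windows of the same length. The variant was in 1 member and 7.49% of windows, the C/EBP-ATF element in 1 and 3.45%, the EGR site GCGNGGGCG in 3 (*Fosb*, *Fosl2* and *Nr4a1*) and 4.7%, the CArG box, which the serum response factor binds, in 1 (*Egr2*, which has 5 windows) and 1.47%, and TATAAA in 1 and 12.4%. No member window held the full CRE TGACGTCA (1.55% of windows), the AP-1 site TGANTCA (6.75%), the STAT site TTCNNNGAA (7.02%) or the endoplasmic reticulum stress element bound by ATF6 (0.113%). The core is part of the full CRE, and the full CRE is a case of the variant, which was added to the search after the windows had been read. A match says only that these letters occur in the window.

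Expression is given in FPKM, fragments per kilobase of transcript scaled to the mapped fragments of the library, as deposited, with each mean ± SD over 5 libraries. Within the FOS family *Fos* itself, the partner of JUN in the classical AP-1 dimer, was the most abundant. *Fos* in *Atf6*+/+ OIR retinas measured 63.3, 18.1, 19.9, 16.2 and 21.9 FPKM in replicates 1 to 5, a mean of 27.9 ± 19.9. Values of *Fos* were 31.4, 18.2, 15.6, 16.6 and 44.4 FPKM in *Atf6*-/- OIR retinas, a mean of 25.2 ± 12.5. Replicate 1 stood far above the other *Atf6*+/+ OIR libraries, replicates 1 and 5 stood above the other *Atf6*-/- OIR libraries, and the genotypes overlapped. Saline-treated retinas held *Fos* at 26.1, 14.1, 22.8, 22.9 and 30.3 FPKM, with a mean of 23.3 ± 5.93. After Ceapin-A7, *Fos* was at 11.97, 15.1, 14.2, 17.4 and 14.7 FPKM, a mean of 14.7 ± 1.93. Of the injected groups, the saline-treated one spread more widely, and its lowest library lay inside the Ceapin-A7 range.

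*Fosb* in *Atf6*+/+ OIR retinas measured 5.98, 1.25, 1.64, 1.64 and 1.09 FPKM in replicates 1 to 5, a mean of 2.32 ± 2.06. Values of *Fosb* were 1.28, 1.15, 1.05, 0.97 and 1.82 FPKM in *Atf6*-/- OIR retinas, a mean of 1.25 ± 0.337. *Fosb*, whose protein and its shorter form build up with repeated stimulation in neurons, was thus high in a single *Atf6*+/+ OIR library and close to 1 FPKM elsewhere, with overlap between genotypes. Saline-treated retinas held *Fosb* at 2.26, 1.88, 1.36, 4.59 and 2.22 FPKM, with a mean of 2.46 ± 1.24. After Ceapin-A7, *Fosb* was at 0.90, 1.06, 1.69, 1.5 and 1.21 FPKM, a mean of 1.27 ± 0.322. Saline replicate 4 was the highest of the injected libraries, and the groups overlapped.

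*Fosl2* in *Atf6*+/+ OIR retinas measured 6.45, 2.72, 1.87, 2.02 and 2.2 FPKM in replicates 1 to 5, a mean of 3.05 ± 1.93. Values of *Fosl2* were 1.62, 1.04, 1.86, 1.14 and 2.29 FPKM in *Atf6*-/- OIR retinas, a mean of 1.59 ± 0.517. *Fosl2*, a FOS family member that is made later and lasts longer than *Fos*, was again highest in *Atf6*+/+ OIR replicate 1, and the genotypes overlapped. Saline-treated retinas held *Fosl2* at 2.14, 1.42, 1.79, 3.92 and 4.12 FPKM, with a mean of 2.68 ± 1.25. After Ceapin-A7, *Fosl2* was at 1.73, 1.58, 1.75, 1.58 and 1.27 FPKM, a mean of 1.58 ± 0.192. Saline replicates 4 and 5 stood apart at the top, while the lowest saline value lay inside the Ceapin-A7 range.

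For the JUN family, the partners that AP-1 cannot do without, both members averaged over 16 FPKM in every group. *Jun* in *Atf6*+/+ OIR retinas measured 37.8, 28.6, 30.02, 23.6 and 27.9 FPKM in replicates 1 to 5, a mean of 29.6 ± 5.19. Values of *Jun* were 19.04, 20.6, 22.4, 17.3 and 29.2 FPKM in *Atf6*-/- OIR retinas, a mean of 21.7 ± 4.57. The 4 lowest *Jun* libraries of the OIR pair were *Atf6*-/- OIR libraries, and replicate 5 alone reached into the *Atf6*+/+ OIR range. Saline-treated retinas held *Jun* at 19.5, 17.4, 20.03, 35.8 and 31.8 FPKM, with a mean of 24.9 ± 8.32. After Ceapin-A7, *Jun* was at 17.2, 17.6, 20.5, 19.9 and 17.9 FPKM, a mean of 18.6 ± 1.5. Saline replicates 4 and 5 were above all other injected libraries, and the rest overlapped.

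*Junb* in *Atf6*+/+ OIR retinas measured 100.5, 26.8, 30.7, 38.5 and 27.6 FPKM in replicates 1 to 5, a mean of 44.8 ± 31.5. Values of *Junb* were 23.5, 35.1, 26.2, 19.04 and 50.8 FPKM in *Atf6*-/- OIR retinas, a mean of 30.9 ± 12.5. *Junb*, a JUN family member that restrains as well as joins AP-1, had in *Atf6*+/+ OIR replicate 1 the highest value of any member in any library. Saline-treated retinas held *Junb* at 24.5, 16.7, 17.6, 68.2 and 45.1 FPKM, with a mean of 34.4 ± 22.1. After Ceapin-A7, *Junb* was at 14.4, 15.2, 19.6, 19.4 and 13.9 FPKM, a mean of 16.5 ± 2.77. As with *Jun*, saline replicates 4 and 5 stood highest, and the lowest saline libraries lay inside the Ceapin-A7 range.

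The EGR genes encode zinc finger factors that bind GC-rich sites. *Egr1* in *Atf6*+/+ OIR retinas measured 45.7, 16.5, 23.2, 8.77 and 17.4 FPKM in replicates 1 to 5, a mean of 22.3 ± 14.04. Values of *Egr1* were 66.4, 21.8, 18.96, 19.9 and 92.1 FPKM in *Atf6*-/- OIR retinas, a mean of 43.8 ± 33.6. In *Atf6*-/- OIR retinas replicates 1 and 5 were far above the other 3, which lay inside the *Atf6*+/+ OIR range. Saline-treated retinas held *Egr1* at 40.4, 17.8, 24.2, 24.2 and 16.9 FPKM, with a mean of 24.7 ± 9.44. After Ceapin-A7, *Egr1* was at 10.2, 18.1, 15.95, 22.6 and 13.1 FPKM, a mean of 15.99 ± 4.76. The order of the saline libraries differed from that of *Jun* and *Junb*: saline replicate 1 was the highest and replicate 5 the lowest for *Egr1*.

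*Egr2* in *Atf6*+/+ OIR retinas measured 2.5, 0.30, 0.33, 0.75 and 0.30 FPKM in replicates 1 to 5, a mean of 0.836 ± 0.95. Values of *Egr2* were 0.20, 0.28, 0.60, 0.26 and 0.38 FPKM in *Atf6*-/- OIR retinas, a mean of 0.344 ± 0.157. *Egr2*, known also as the factor that drives myelination in Schwann cells, was under 1 FPKM in 9 of the 10 OIR libraries. Saline-treated retinas held *Egr2* at 0.28, 0.09, 0.05, 2.52 and 0.66 FPKM, with a mean of 0.72 ± 1.04. After Ceapin-A7, *Egr2* was at 0.07, 0.10, 0.09, 0.10 and 0.13 FPKM, a mean of 0.098 ± 0.0217. Its spread in the saline group was the widest of any member in any group, and values this low are limited by the 2 decimals of the deposited FPKM.

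*Atf3* in *Atf6*+/+ OIR retinas measured 12.4, 3.88, 4.78, 8.22 and 4.2 FPKM in replicates 1 to 5, a mean of 6.7 ± 3.63. Values of *Atf3* were 3.07, 5.44, 3.64, 3.53 and 5.14 FPKM in *Atf6*-/- OIR retinas, a mean of 4.16 ± 1.06. *Atf3*, which encodes a CREB-family factor induced by stress and nerve injury, was highest in *Atf6*+/+ OIR replicate 1 and next in *Atf6*+/+ OIR replicate 4, with overlap between genotypes. Saline-treated retinas held *Atf3* at 6.37, 6.4, 4.86, 28.6 and 20.7 FPKM, with a mean of 13.4 ± 10.7. After Ceapin-A7, *Atf3* was at 3.33, 3.79, 5.41, 5.47 and 3.18 FPKM, a mean of 4.24 ± 1.12. Saline replicates 4 and 5 measured over 20 FPKM and every other injected library under 7 FPKM, so the saline mean rests on those 2 libraries: without them it was 5.88 ± 0.881 FPKM (SD, n = 3).

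*Nr4a1* in *Atf6*+/+ OIR retinas measured 49.02, 22.4, 33.03, 29.1 and 24.03 FPKM in replicates 1 to 5, a mean of 31.5 ± 10.7. Values of *Nr4a1* were 38.3, 27.7, 29.6, 24.1 and 71.8 FPKM in *Atf6*-/- OIR retinas, a mean of 38.3 ± 19.4. *Nr4a1*, an orphan nuclear receptor, was, like *Egr1*, highest in *Atf6*-/- OIR replicate 5, and the genotypes overlapped. Saline-treated retinas held *Nr4a1* at 28.6, 16.95, 29.3, 24.98 and 18.1 FPKM, with a mean of 23.6 ± 5.77. After Ceapin-A7, *Nr4a1* was at 14.7, 19.9, 18.9, 21.4 and 17.4 FPKM, a mean of 18.5 ± 2.57. The highest saline libraries for *Nr4a1* were replicates 3 and 1, and not 4 and 5. *Npas4*, which neurons make when calcium enters through active synapses, ranged from 1.87 to 5.09 FPKM in *Atf6*+/+ OIR (median 3.76), from 1.58 to 4.57 in *Atf6*-/- OIR (median 2.87), from 2.41 to 3.58 in saline-treated (median 2.94) and from 2.51 to 3.12 in Ceapin-A7-treated retinas (median 2.63). It varied least between the groups, and all of its ranges overlapped.

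**Figure D1:**
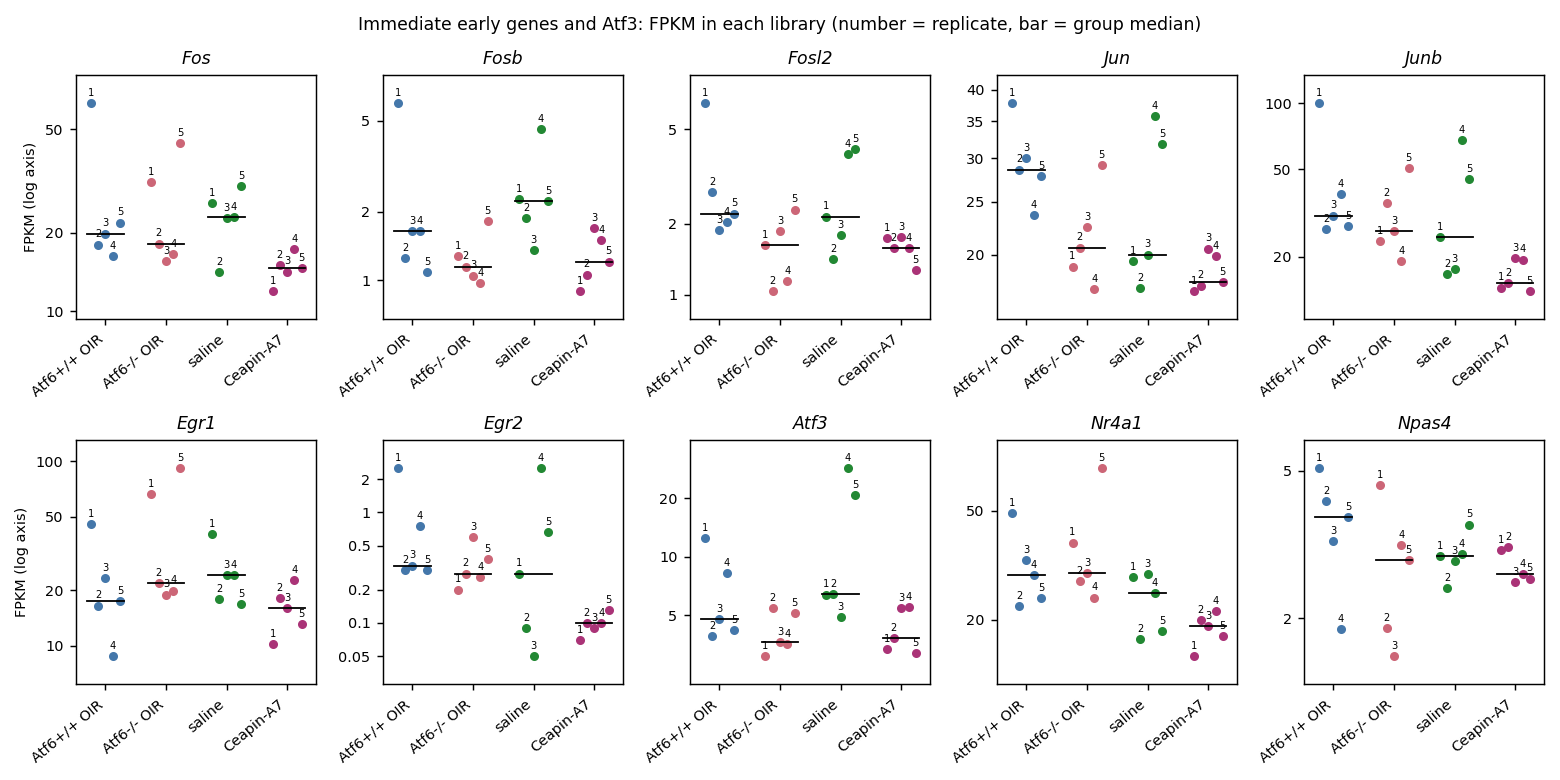
FPKM of each of the 10 genes in every library (log axis), with points numbered by replicate, colours for the 4 groups and a black bar at the group median. *Atf6*+/+ OIR replicate 1 is the top point of its group in all 10 panels, and saline replicates 4 and 5 are the top points of theirs for *Fosl2*, *Jun*, *Junb*, *Egr2* and *Atf3*.

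Ranked by group mean, 6 members were highest in *Atf6*+/+ OIR retinas (*Fos*, *Fosl2*, *Jun*, *Junb*, *Egr2* and *Npas4*), *Egr1* and *Nr4a1* in *Atf6*-/- OIR retinas, and *Fosb* and *Atf3* in saline-treated retinas. The Ceapin-A7 group had the lowest mean for 8 members, and *Atf6*-/- OIR for *Fosb* (1.25 beside 1.27 FPKM) and *Atf3* (4.16 beside 4.24 FPKM). In these orders the values of neighbouring groups overlapped, with 1 exception: the *Atf6*-/- OIR libraries of *Egr2* all lay above the Ceapin-A7 libraries, a step across tables that were deposited separately. They measured 0.20 to 0.60 FPKM beside 0.07 to 0.13 FPKM, and the latter lie near the 0.1 FPKM at which rounding limits values. The share of all genes that separate these groups was not taken.

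The spread inside the groups was wide for these genes. Spread was measured as the SD of log2(FPKM + 0.1), after rescaling libraries by the median of ratios, over the 5 libraries of a group. The median SD over the 10 members was 0.765 in *Atf6*+/+ OIR retinas, where the median over all 15704 genes tested was 0.156. In *Atf6*-/- OIR retinas it was 0.529 beside 0.162, and in saline-treated retinas 0.553 beside 0.139. The Ceapin-A7 group was the tightest, with 0.191 for the members and 0.096 for all 15408 genes. All 10 members lay above the all-gene median SD in each group, and 9, 7, 7 and 1 of them were among the tenth of genes with the widest spread, in the same order of groups.

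**Figure D2:**
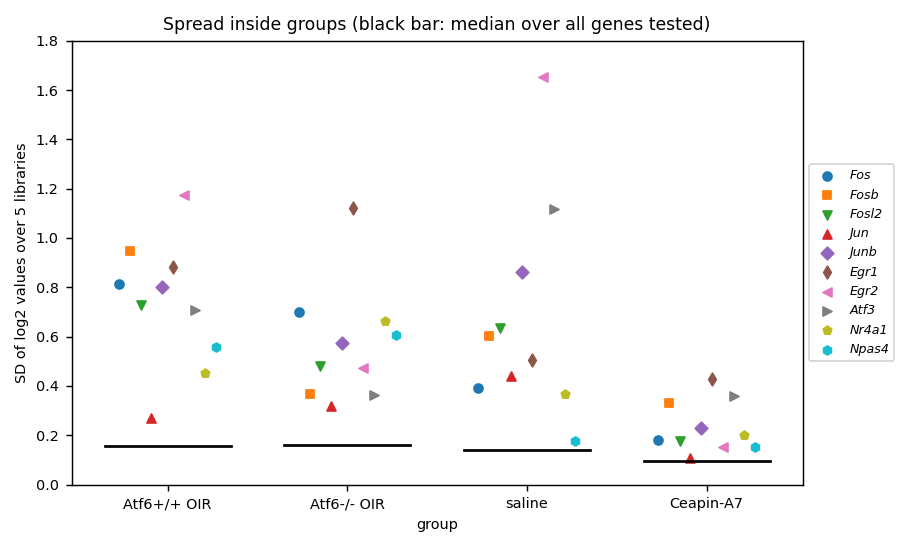
SD of log2 values over the 5 libraries of a group (vertical axis) for each gene (symbols) in the 4 groups, with black bars at the median over all genes tested. Every symbol lies above the bar of its group, and the symbols of the Ceapin-A7 group lie closest to theirs.

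The widest single spreads were those of *Egr2* in saline-treated retinas (SD 1.65 on the log2 scale) and in *Atf6*+/+ OIR retinas (1.17), of *Egr1* in *Atf6*-/- OIR retinas (1.12) and of *Atf3* in saline-treated retinas (1.12). *Jun* had the smallest SD of the members in *Atf6*+/+ OIR (0.269), *Atf6*-/- OIR (0.319) and Ceapin-A7-treated retinas (0.106). In saline-treated retinas its SD was 0.441, and the smallest was that of *Npas4* (0.177). In FPKM, the highest library exceeded the lowest by 3.9-fold for *Fos* in *Atf6*+/+ OIR retinas and by 1.45-fold after Ceapin-A7. For *Atf3* the ratio was 5.88 in saline-treated and 1.72 in Ceapin-A7-treated retinas. No difference in spread between groups was tested.

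A few libraries stood out in this spread. *Atf6*+/+ OIR replicate 1 was the highest of its group for all 10 members, by a median of 1.26 above the group mean on the log2 scale. *Atf6*-/- OIR replicate 5 was the highest in FPKM for 7 of 10, with a median deviation of 0.614. Saline replicate 4 was the highest for 5 members and replicate 5 for 3, with median deviations of 0.594 and 0.392, and for *Fosl2*, *Jun*, *Junb*, *Egr2* and *Atf3* both lay above the other 3 saline libraries. Among all genes tested, *Atf6*+/+ OIR replicate 1 was the highest of its group for 22.2%, *Atf6*-/- OIR replicate 5 for 29.9%, and saline replicates 4 and 5 lay together above the others for 17.9%.

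**Figure D3:**
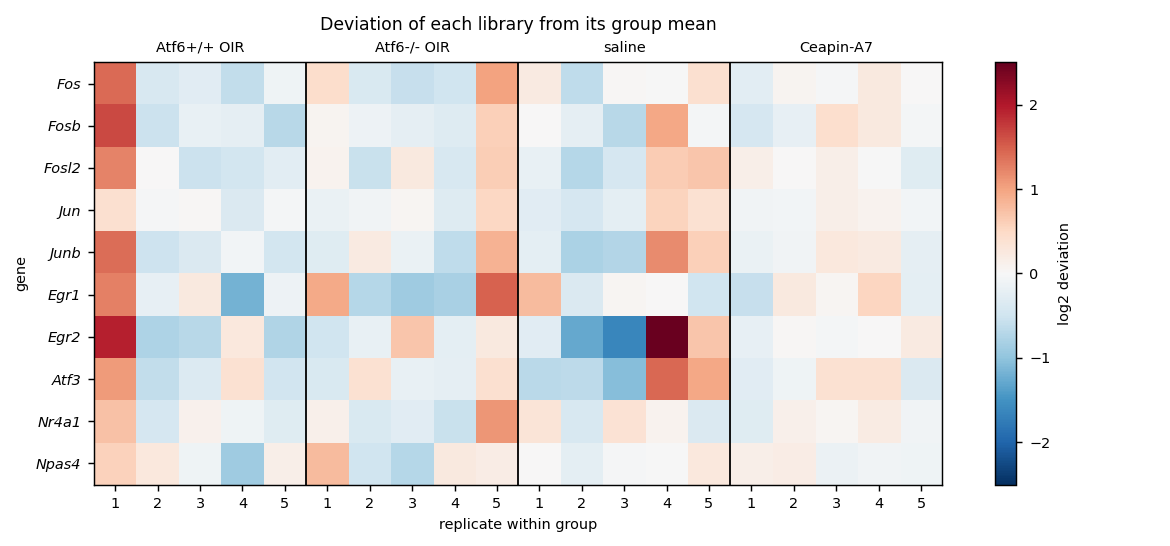
Difference between each library and its group mean on the log2 scale (colour, red above and blue below) for the 10 genes (rows) in replicates 1 to 5 of each group (columns). The *Atf6*+/+ OIR replicate 1 column is red throughout, saline replicates 4 and 5 are reddest for *Egr2* and *Atf3*, and the Ceapin-A7 columns are pale.

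Some other gene lists moved with those libraries. In *Atf6*+/+ OIR replicate 1, 31 of 35 other immediate early genes, 15 of 15 retinal gliosis genes and 8 of 11 tested nerve injury genes were the highest of the group. Summed over the gliosis list, FPKM ranged from 457 to 977 in *Atf6*+/+ OIR, 336 to 679 in *Atf6*-/- OIR, 204 to 740.1 in saline-treated and 181 to 311 in Ceapin-A7-treated retinas. *Gfap*, the filament protein of reactive Muller glia, was 129.7, 60.1, 77.3, 109.6 and 51.2 FPKM in *Atf6*+/+ OIR replicates 1 to 5. In *Atf6*-/- OIR replicate 5, 22 of 35 other immediate early genes, 5 of 7 endothelial and 5 of 6 mural cell markers were the highest, beside 29.9% of all genes. So were 16 of 25 kinases and factors upstream of immediate early genes and 8 of 13 integrated stress response genes. The gliosis and nerve injury lists did not follow in that library, with 3 of 15 and 1 of 11 tested genes the highest.

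In saline replicates 4 and 5 together, 11 of 13 integrated stress response genes, 20 of 35 other immediate early genes and 8 of 15 gliosis genes lay above the other saline libraries. All 7 rod markers, 5 of 6 cone, 4 of 6 bipolar and 2 of 6 Muller glia markers lay below them, beside 16.6% of all genes. Rod marker FPKM summed to 13240 to 20040 in saline-treated and 18340 to 19590 in Ceapin-A7-treated retinas, cone markers to 802 to 1136 and 1092 to 1218, and Muller glia markers to 698 to 1832 and 1471 to 1709. *Lif*, a cytokine that injured retina makes, was 0.38, 0.36, 0.20, 4.25 and 5.23 FPKM in saline replicates 1 to 5 and 0.25 to 0.30 FPKM after Ceapin-A7. In whole retina, fewer cells of a type and less RNA per cell cannot be told apart. The part of these other genes in the values of the members was not tested.

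Markers of tissue beside the retina varied between libraries of every group. Lens fibre markers summed to 64.03 to 449 FPKM in *Atf6*+/+ OIR, 66.2 to 85.8 in *Atf6*-/- OIR, 69.8 to 5954 in saline-treated and 138 to 9823 in Ceapin-A7-treated retinas, with 6 of 8 markers at 0 in at least 1 *Atf6*-/- OIR library. Retinal pigment epithelium markers summed to 11.4 to 82.3, 44.9 to 259.6, 102 to 211 and 79.8 to 162 FPKM in the same order, and erythrocyte markers to 379.6 to 2505, 407 to 1361, 142 to 371 and 170.4 to 322 FPKM. For microglia and macrophage markers the sums were 39.8 to 58.1, 34.2 to 48.1, 16.3 to 20.5 and 15.7 to 24.1 FPKM. None of these markers was highest in *Atf6*+/+ OIR replicate 1, while 4 of 7 microglia and macrophage and 3 of 7 pigment epithelium markers were the lowest there, beside 19.2% of all genes. In saline replicates 4 and 5 together, 4 of 7 pigment epithelium markers and 1 of 7 microglia and macrophage markers lay below the other saline libraries, beside 16.6% of all genes, and no lens fibre or erythrocyte marker lay above or below them. The part of these markers in the members' values was not tested.

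For loss of ATF6 in OIR, no member passed limma's test with Benjamini-Hochberg adjustment over 15704 genes, of which 5 (0.0318%) had an adjusted p under 0.05. At an unadjusted p up to 0.05, 2 of 10 members were called, *Jun* and *Fosl2*, both lower in *Atf6*-/- OIR retinas, beside 12.7% of all genes (5.81% lower). The log2 fold change of *Jun* was -0.43 (standard error 0.16), with p = 0.0176 from limma and 0.362 adjusted, and the exact two-sided permutation test gave 0.0635. For *Fosl2* it was -0.78 (standard error 0.33), with p = 0.0347 from limma and 0.373 adjusted, and the exact permutation test gave 0.0714. The smallest p that this exact test can give with 5 against 5 libraries is 0.00794. With limma's array weights, which weight down libraries of wide spread, *Jun* had an adjusted p of 0.0251 at a log2 fold change of -0.53, but so many genes passed under these weights, 2769 of 15704, that 1 of 10 members is no larger a share than that of all genes.

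The other members differed between genotypes by less than 2 standard errors. Values of *Atf3* (-0.54, standard error 0.30), *Fosb* (-0.55, standard error 0.38), *Egr2* (-0.68, standard error 0.47), *Junb* (-0.40, standard error 0.36) and *Npas4* (-0.36, standard error 0.31) were lower in *Atf6*-/- OIR retinas on average. *Egr1* (0.86, standard error 0.52) and *Nr4a1* (0.24, standard error 0.30) were higher on average, and *Fos* had a log2 fold change of -0.042 (standard error 0.39). Their adjusted p from limma ran from 0.429 for *Atf3* to 0.965 for *Fos*. In all 8 members were lower and 2 higher, with a median log2 fold change of -0.41, where 49.3% of all genes were lower and their median was 0.0028. No member separated the genotypes without overlap, beside 1.80% of all genes.

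*Jun* kept an unadjusted p up to 0.05 whichever library was left out. *Fosl2* did not without *Atf6*+/+ OIR replicates 1 or 2 or *Atf6*-/- OIR replicates 2 or 4, while *Egr1*, higher in *Atf6*-/- OIR, was called without *Atf6*+/+ OIR replicate 1 and *Atf3*, lower, without *Atf6*+/+ OIR replicate 2. With 1 library left out, the share of all genes at an unadjusted p up to 0.05 moved as well. It ran from 6.95% without *Atf6*-/- OIR replicate 4 to 25.5% without *Atf6*-/- OIR replicate 5, beside 12.7% with all 10 libraries. Without *Atf6*+/+ OIR replicates 1 or 2 it was 8.285% and 9.242%. Calls gained or lost in these fits are therefore not shown to be particular to the members. The median over the members also depended on single libraries. Without *Atf6*+/+ OIR replicate 1 it was -0.17, with 7 members lower, and *Fos* went to 0.31. Without *Atf6*-/- OIR replicate 5 it was -0.59, with 9 lower, and *Nr4a1* went to -0.039. With both left out the median was -0.27, *Jun* was -0.47 (adjusted p = 0.178) and *Fosl2* -0.62 (adjusted p = 0.194, both from limma). Fold changes in OIR also followed the GC content of the transcript, with a Spearman correlation of -0.479 across genes, and the members' transcripts are richer in GC than 57.6% to 98.5% of genes. After correction for GC content the members' median was -0.31. Of the genes at an unadjusted p up to 0.05, 54.5% were higher in *Atf6*-/- OIR retinas, but 30.5% were with FPKM as deposited and 31.0% after rescaling to equal sums, and the direction of each member's fold change was the same under these scalings and under quantile normalization.

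After Ceapin-A7, all 10 members were lower on average than in saline-treated retinas, with a median log2 fold change of -0.62, where 49.7% of all genes were lower and their median was 9e-04. At an unadjusted p up to 0.05 from limma, 6 of the 10 were called, all lower, beside 10.4% of all 15408 genes tested (5.31% lower). No member had an adjusted p under 0.05, and neither did any other gene, so the calls stand only before correction for the number of genes. The groups overlapped for every member, as they did for all but 1.47% of genes.

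*Atf3* had the largest log2 fold change, -1.31 (standard error 0.44), a fold of 0.404 (p = 0.0127 from limma, adjusted p = 0.472, exact permutation p = 0.0238). For *Fos*, which had the smallest p, it was -0.63, standard error 0.16 (p = 0.0027 from limma, adjusted p = 0.472, exact permutation p = 0.0317). *Fosb* was at -0.82 (standard error 0.27), *Junb* at -0.85 (standard error 0.33), *Egr1* at -0.60 (standard error 0.25) and *Fosl2* at -0.61 (standard error 0.26), each with an adjusted p of 0.472 from limma. Their exact permutation p were 0.0238, 0.0476, 0.0714 and 0.0794. In every one of the 5 Ceapin-A7 libraries, 8 members were below the saline median, the exceptions being *Jun*, with 4 libraries below it, and *Npas4*, with 3. *Egr2* had a log2 fold change of -1.23 (standard error 0.64), *Jun* of -0.36 (standard error 0.17), *Nr4a1* of -0.33 (standard error 0.16) and *Npas4* of -0.080 (standard error 0.10), with adjusted p of 0.506, 0.489, 0.492 and 0.781 from limma. Rod and cone markers were higher on average after Ceapin-A7, 7 of 7 and 6 of 6, with 1 and 4 called.

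Saline replicates 4 and 5 bore unequally on these values. Without them the median over the members was -0.34, and the members called at an unadjusted p up to 0.05, beside 5.00% of all genes, were *Fos* (-0.50), *Fosb* (-0.52), *Egr1* (-0.76), *Atf3* (-0.51) and *Nr4a1* (-0.42), on the log2 scale, at adjusted p = 0.991 from limma for each. *Egr1* and *Nr4a1*, which were not high in those libraries, were thus at lower log2 fold changes without them. *Atf3* went from -1.31 to -0.51, *Junb* from -0.85 to -0.26, *Egr2* from -1.23 to -0.18, *Fosl2* from -0.61 to -0.17, *Jun* from -0.36 to -0.044 and *Npas4* from -0.080 to 0.0043. With 1 library left out, from 3 members (without Ceapin-A7 replicate 5) to 9 (without saline replicate 2) were called, and 4 without saline replicate 4 or Ceapin-A7 replicates 1 or 2. The share of all genes called moved as well. It was 8.10% without Ceapin-A7 replicate 5, 16.4% without saline replicate 2 and 6.21% without saline replicate 4. Without Ceapin-A7 replicates 1 or 2 it was 8.59% and 7.40%. When all 20 libraries shared 1 estimate of the spread, 3 members kept an unadjusted p up to 0.05, *Atf3*, *Fosb* and *Junb*, beside 8.69% of all genes.

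**Figure D4:**
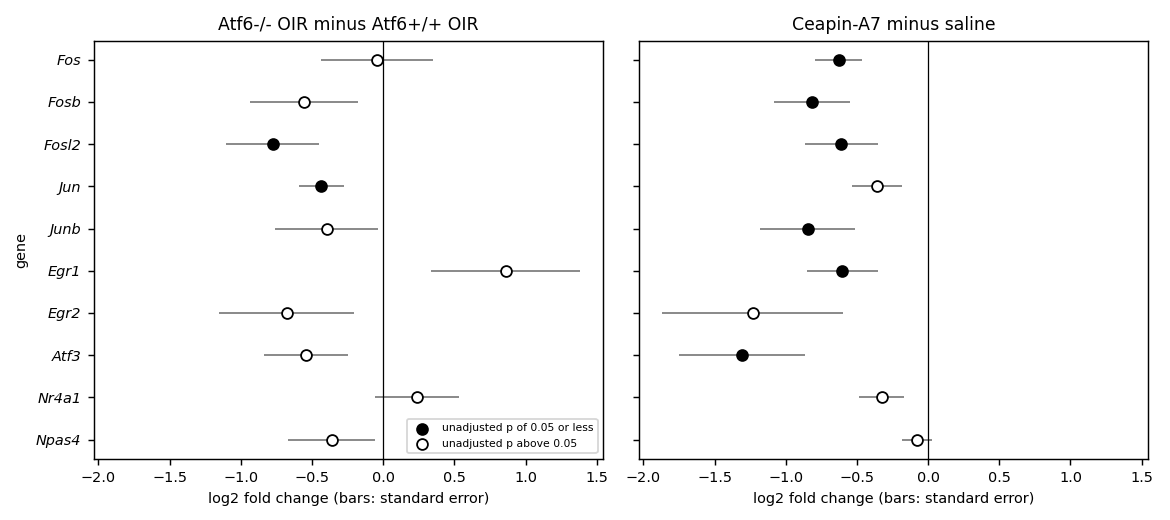
Log2 fold change of each gene (points, with standard errors as bars) for *Atf6*-/- OIR against *Atf6*+/+ OIR retinas (left) and for Ceapin-A7-treated against saline-treated retinas (right), filled where the unadjusted p from limma was 0.05 or less. On the right all 10 points lie below 0 and 6 are filled, and on the left 8 lie below 0 and 2, *Jun* and *Fosl2*, are filled.

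The pairs of groups were also set against each other. The difference between the genotype and the Ceapin-A7 fold changes was tested in a fit of all 20 libraries, in which 5 of 15628 genes (0.0320%) passed and no member did. *Egr1* was the only member at an unadjusted p up to 0.05 (beside 9.19% of all genes), with a difference of 1.46 (standard error 0.63) and an adjusted p of 0.513 from limma: it was higher on average in *Atf6*-/- OIR than in *Atf6*+/+ OIR retinas and lower after Ceapin-A7 than after saline. *Egr1* was no longer called without *Atf6*+/+ OIR replicate 4, *Atf6*-/- OIR replicates 1 or 5, saline replicate 1 or Ceapin-A7 replicate 1, and 3 members were called without *Atf6*+/+ OIR replicate 1, beside 8.19% of all genes. For no member, *Egr1* included, was a different response to gene loss and to the compound shown.

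Between *Atf6*+/+ retinas of the OIR and the saline groups, 59.0% of 15628 genes had an adjusted p under 0.05, but no member did, and none had an unadjusted p up to 0.05 (63.1% of all genes). *Atf3* came closest, lower in *Atf6*+/+ OIR by a log2 fold change of -0.78 (standard error 0.40) with an adjusted p of 0.101 from limma. *Jun* followed at 0.28, standard error 0.17 (adjusted p = 0.182) and *Nr4a1* at 0.38, standard error 0.26 (adjusted p = 0.212), both higher in *Atf6*+/+ OIR. Which members passed depended on single libraries: *Atf3* passed without saline replicate 3 (-1.05, adjusted p = 0.0311 from limma) and without *Atf6*+/+ OIR replicate 1 (-1.05, adjusted p = 0.032 from limma), as did *Fosb* (-0.69, adjusted p = 0.0273), and *Jun* and *Egr2* passed without saline replicate 4 (0.41 and 1.17, adjusted p = 0.038 and 0.0487). Without *Atf6*+/+ OIR replicate 1 and saline replicates 4 and 5, *Jun* (0.49), *Junb* (0.62) and *Egr2* (1.13) were higher in *Atf6*+/+ OIR retinas with adjusted p of 0.00676, 0.0464 and 0.00923. In that fit 58.3% of all genes had an unadjusted p up to 0.05, so 3 of 10 members is a smaller share. The share of all genes was 60.8% without *Atf6*+/+ OIR replicate 1. It was 61.0% without saline replicate 3 and 61.9% without saline replicate 4.

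Genes that act with the members were described by list, in which no gene in either comparison within a pair had an adjusted p under 0.05. A gene is said to be called where its unadjusted p from limma was up to 0.05, which over all genes was so for 12.7% in OIR (5.81% lower) and 10.4% after Ceapin-A7 (5.31% lower). Of 35 other immediate early genes, 32 were lower in *Atf6*-/- OIR retinas, 6 of them at an unadjusted p up to 0.05 and none higher at that p, with a median log2 fold change of -0.22. In log2 fold change, the growth arrest gene *Gadd45g* was at -0.40, the pluripotency and differentiation factor *Klf4* at -0.47 and the small MAF factor *Maff* at -0.87. After Ceapin-A7, 28 of the 35 were lower, 6 of them at that p, and 1 higher, with a median of -0.19. *Ier2* was at -0.38, the antiproliferative gene *Btg2* at -0.19, and the MAP kinase phosphatase *Dusp4* was the higher one, at 0.24.

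Among bZIP partners of the AP-1, ATF and MAF families, 11 of 16 were lower in *Atf6*-/- OIR retinas, 1 called lower (*Cebpb*, -0.70) and 1 higher (*Atf2*, 0.12), and 12 of 14 tested were lower after Ceapin-A7 with 3 called, *Cebpd* at -1.26, *Atf7* at -0.38 and *Mafg* at -0.14. Of the 3 corepressors of EGR and NR4A factors, *Nrip1* was called higher in *Atf6*-/- OIR retinas (0.21) and *Nab1* lower after Ceapin-A7 (-0.24). The kinases and factors upstream of immediate early genes split evenly in OIR, 12 lower and 13 higher, with 5 called, all higher, among them *Elk4*, an ETS partner of the serum response factor, at 0.47. After Ceapin-A7, 21 of those 25 were lower with 3 called, the CREB coactivator *Crtc2* (-0.20), *Creb1* itself (-0.25) and *Mef2d* (-0.20).

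The integrated stress response genes, which ATF4 switches on together with *Atf3*, were lower for 10 of 13 members in *Atf6*-/- OIR retinas with 1 called, *Ddit3*, which encodes CHOP, at -0.28. All 13 were lower on average after Ceapin-A7 with 3 called, *Atf5* at -0.99, *Trib3* at -0.57 and *Sesn2* at -0.33. *Atf5* was 17.6, 24.04, 14.4, 56.3 and 64.8 FPKM in saline replicates 1 to 5, the pattern of *Atf3* in the same libraries. Of 11 nerve injury genes tested, 8 were lower in *Atf6*-/- OIR retinas (2 called) and 10 after Ceapin-A7 (1 called). *Hspb1*, called lower in *Atf6*-/- OIR retinas (-0.50), is on both the nerve injury and the heat shock list and is counted in each. All 15 retinal gliosis genes were lower on average in both comparisons, 4 and 7 of them called. All 15 were the highest of their group in *Atf6*+/+ OIR replicate 1, and 8 lay above the other saline libraries in saline replicates 4 and 5. The heat shock genes were lower for 6 of 7 (2 called) in *Atf6*-/- OIR retinas and 5 of 7 (0 called) after Ceapin-A7.

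Markers of all 13 cell types were compared in the same way. In OIR, 7 of 7 rod, 6 of 6 cone, 5 of 6 bipolar, 4 of 6 Muller glia, 3 of 4 horizontal, 4 of 7 ganglion cell and 6 of 7 pigment epithelium markers were higher on average in *Atf6*-/- OIR retinas. All 7 endothelial, all 6 mural, all 7 tested lens fibre and all 5 erythrocyte markers were lower, as were 4 of 6 amacrine and 6 of 7 microglia and macrophage markers. Of these, 5 lens fibre, 4 pigment epithelium, 3 mural, 2 rod, 2 cone and 1 each of the amacrine, ganglion cell, horizontal, Muller glia, microglia and endothelial markers were called, and none passed adjustment. Each called marker went the way of most of its list, except the amacrine one, which was higher in *Atf6*-/- OIR retinas. After Ceapin-A7, beside the rod and cone markers, 5 of 6 Muller glia (1 called), 4 of 6 bipolar (2 called), 8 of 8 lens fibre (0 called), 3 of 4 horizontal (0 called), 4 of 7 ganglion cell (0 called), 4 of 7 microglia (1 called) and 4 of 6 mural markers (1 called) were higher on average. Lower were 6 of 7 endothelial (0 called), 4 of 5 erythrocyte (0 called), 4 of 7 pigment epithelium (2 called lower, 2 called higher) and 3 of 6 amacrine markers (0 called).

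Inside the groups the members varied together to different degrees. With group means removed, *Fos* was correlated with *Egr1* over the 10 OIR libraries (Pearson r = 0.924, exact permutation p = 0.000903, adjusted p = 0.0163 over 18 relations, Spearman rho = 0.964, exact permutation p = 0.000208, adjusted p = 0.00375). Without *Atf6*+/+ OIR replicate 1 and *Atf6*-/- OIR replicate 5, the libraries farthest from the median of *Fos*, r was 0.91. No other relation with *Fos* passed the adjustment over 18. The r of *Fos* with the other members in OIR ran from 0.552 for *Egr2* to 0.875 for *Nr4a1*, and several rested on those 2 libraries: without them r went from 0.816 to -0.145 for *Junb*, from 0.575 to -0.427 for *Atf3* and from 0.873 to 0.291 for *Fosb*.

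In the injected libraries, r with *Fos* ran from 0.205 for *Fosb* to 0.561 for *Fosl2* and none passed. Over all 45 pairs in each pair of groups, with adjustment over 90, 6 passed in OIR and 6 in the injected libraries. *Fos* with *Nr4a1* in OIR was among them (r = 0.875, exact permutation p = 0.0059, adjusted p = 0.0443 over 90 pairs, but 0.0531 over the 18 relations with *Fos*), with rho = 0.648 and r = 0.542 without *Atf6*+/+ OIR replicate 1 and *Atf6*-/- OIR replicate 5. In the injected libraries *Junb*, *Jun* and *Atf3* formed a block of correlated genes, with r = 0.968 for *Junb* and *Atf3* (exact permutation p = 0.00167, adjusted p = 0.03), 0.966 for *Jun* and *Junb* and 0.956 for *Jun* and *Atf3*, and with 0.919, 0.911 and 0.864 after leaving out saline replicates 4 and 5. *Fosl2* was close to this block, with r = 0.92 with *Jun*, 0.917 with *Junb* and 0.882 with *Atf3*. Without saline replicates 2 and 5 these were 0.874, 0.925 and 0.911, but none of the 3 pairs passed the adjustment (adjusted exact permutation p = 0.0588, 0.0588 and 0.0838). *Egr1* and *Nr4a1* were correlated in both settings, with r = 0.854 in OIR (exact permutation p = 0.00486, adjusted p = 0.0437, rho = 0.685, 0.615 without 2 libraries) and 0.853 in the injected libraries (exact permutation p = 0.00118, adjusted p = 0.03, rho = 0.867, 0.819 without 2). *Junb* and *Atf3* were as well, with r = 0.905 in OIR (exact permutation p = 0.00146, adjusted p = 0.03, rho = 0.855, 0.821 without 2). *Fosb* and *Junb* passed in both settings by Pearson's r (0.927 and 0.835), with 0.519 and 0.509 after leaving out 2 libraries. By Spearman's rho, only *Fos* and *Egr1* in OIR passed the adjustment over 90 pairs (adjusted p = 0.0188). All members of a library share its depth and its RNA.

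**Figure D5:**
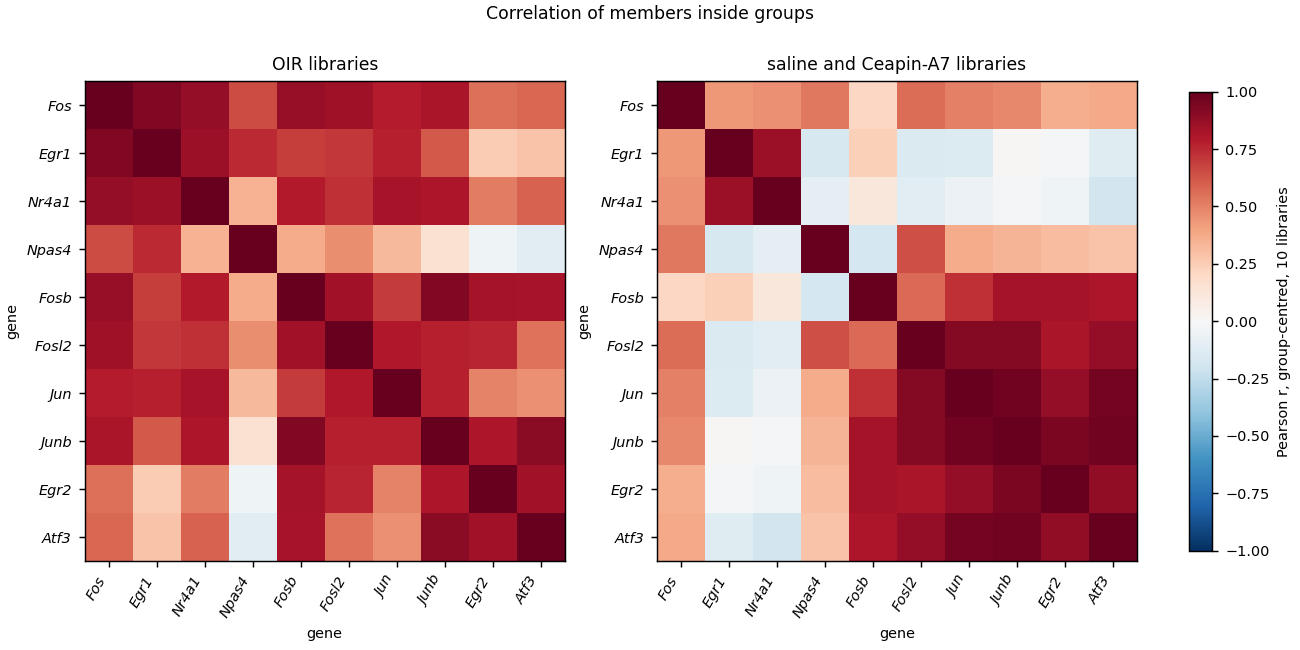
Pearson r between every pair of members (colour, from -1 in blue to 1 in red), with group means removed, over the 10 OIR libraries (left) and the 10 saline and Ceapin-A7 libraries (right). Most OIR pairs are red, with a median r of 0.746, while on the right *Fosl2*, *Jun*, *Junb*, *Egr2* and *Atf3* form a red block and the median r is 0.436.

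The genes outside the set whose deviations inside the groups were most like the mean of the 10 members are given as a description, over 10 libraries in each case. Among 13052 genes with a mean of at least 1 FPKM in OIR, these were *Zfp36* (r = 0.978), *Bsg* (0.962), *Icam1* (0.956), *Bag3* (0.945), *Sdc4* (0.943), *Cd47* (0.942), *Neurod1* (0.938) and *Nab2* (0.937). Among 12774 genes in the injected libraries they were *Arhgef2* (0.984), *Socs3* (0.978), *Flot1* (0.976), *Nf2* (0.966), *Myof* (0.963), *Adamtsl5* (0.962), *Sbno2* (0.961) and *Tead3* (0.958). No gene was on both lists. *Zfp36*, which encodes an mRNA decay factor, and *Socs3*, which restrains cytokine signalling, are themselves genes of rapid induction. *Zfp36* was 8.92, 4.36, 4.28, 4.56 and 4.15 FPKM in *Atf6*+/+ OIR replicates 1 to 5, and *Socs3* was 4.09, 2.77, 2.63, 15.4 and 7.26 FPKM in saline replicates 1 to 5. Both were chosen for their likeness to the members' mean, so being high in the same libraries follows from that choice.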

How the data were processed

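The data were 20 mouse retina libraries, 5 for each of the 4 groups in the labels. The authors made stranded mRNA libraries with paired-end reads of 100 bp, mapped them with HISAT2 (v2.0.4) to GRCm39 and deposited FPKM from RSEM (v1.2.18), to 2 decimals. All 20 FPKM columns were used (0 were left out). As the files hold no counts, no count model was fitted, and the depth is known only as a ratio between libraries. Rounding limits genes near 0.1 FPKM.

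Libraries were rescaled by the median of ratios, and log2(FPKM + 0.1) of genes whose mean FPKM was above 0.1 was tested with limma (version 3.58.1) under R (version 4.3.3), using eBayes and its trend option. Fold changes refer to this log2 scale, on which low genes change less. The OIR pair and the injected pair were fitted apart, and comparisons across them took all 20 libraries. P-values were adjusted by Benjamini-Hochberg over every gene of a fit and called under 0.05. For single genes an exact permutation test (two-sided) was added. Correlations used values with group means removed and permuted libraries within groups (14400 arrangements, smallest p 0.00014). Python (version 3.11.15) and scipy (version 1.17.1) were used. On simulated data, 93.5% (OIR, 15704 genes) and 98.5% (Ceapin-A7, 15408 genes) of 200 genes changed 2-fold were called, and 0.0774% and 0.0723% of unchanged genes. The noise was drawn for each gene by itself, without shifts shared by the genes of a library. Most genes also spread less than the members, so these shares do not hold for the members. Promoters came from RefSeq GRCm38.p6 by symbol. GC content was that of the longest GENCODE transcript of each symbol, on GRCm38, and was at hand for 97.0% and 97.1% of genes.

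The members, 8 lists of companion genes and 13 lists of cell type markers were chosen with earlier results of these data known. Named are all 10 members, genes among the 3 with the smallest p of each companion list and comparison, and the 8 genes in each pair of groups most like the members' mean. Single-library values of *Gfap*, *Lif*, *Atf5*, *Zfp36* and *Socs3*, and the libraries set apart, were chosen after their values were seen. Alternatives were pseudocounts of 1 and 0.01, other filters and scalings, limma without trend, robust or with array weights, 1 fit for all 20 libraries, a block for the replicate number, a GC correction (lowess span 0.3) and leaving out libraries. Those with a GC correction, a robust fit or several libraries left out together were added after seeing the data.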

Additional observations from a re-analysis of the deposited data

Results flagged for a closer look

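In *Atf6*+/+ OIR replicate 1, 3 members stood apart from the other 4 libraries of the group by more than Dixon's 95% critical value for 5 samples, 0.71, for the gap to the nearest library divided by the whole range, both on the rescaled log2 scale used for the tests. *Fos* was 63.3 FPKM there and 16.2 to 21.9 FPKM in the others (0.75 of the log2 range). *Fosb* was 5.98 FPKM beside 1.09 to 1.64 FPKM (0.785), and *Junb* was 100.5 FPKM beside 26.8 to 38.5 FPKM (0.759). All 3 lie in the same library, in which the remaining 7 members were also the highest of the group, so they are not separate observations. Of 40 groups of 5 values tested, these were the 3 that stood apart on that scale, and chance marks about 1 in 20. On FPKM as deposited, a scale tried after seeing the data on which high values stand out more, 7 passed: *Fos* in *Atf6*+/+ OIR replicate 1 (0.879, highest), *Fosb* in *Atf6*+/+ OIR replicate 1 (0.888, highest), *Fosb* in saline-treated replicate 4 (0.721, highest), *Fosl2* in *Atf6*+/+ OIR replicate 1 (0.814, highest), *Junb* in *Atf6*+/+ OIR replicate 1 (0.841, highest), *Egr2* in *Atf6*+/+ OIR replicate 1 (0.795, highest) and *Egr2* in saline-treated replicate 4 (0.753, highest).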

How the results depend on the processing

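In OIR 5 genes passed adjustment, and this count was 9 with no filter, 11 in the fit of all 20 libraries, 8 after GC correction and 2769 with array weights, under which 5749 genes had an unadjusted p up to 0.05 in place of 2002 and 1 member, *Jun*, passed in place of 0. For Ceapin-A7, 1 gene passed in the fit of all 20 libraries in place of 0. In that fit 3 members had an unadjusted p up to 0.05 in place of 6, beside 8.69% and 10.4% of all genes. Without saline replicates 4 and 5 the number of genes at that p was 769 in place of 1595. For the difference of differences, array weights gave 744 genes adjusted and 3804 unadjusted in place of 5 and 1436. Leaving out *Atf6*+/+ OIR replicate 1, *Atf6*-/- OIR replicate 5 and saline replicates 4 and 5 gave 3 members unadjusted in place of 1. The shares of all genes beside them were 13.3% and 9.19%. Between *Atf6*+/+ OIR and saline, 1 member, *Jun*, passed with array weights, adjusted or not, and 3 did without *Atf6*+/+ OIR replicate 1 and saline replicates 4 and 5, in place of 0. Of all genes, 65.25% and 58.3% had an unadjusted p up to 0.05 in these fits, so the members' shares were smaller. With 1 library left out in turn, adjusted gene counts ran over 5 to 9 in OIR, 0 after Ceapin-A7, 8744 to 9233 between *Atf6*+/+ OIR and saline and 3 to 12 for the difference of differences, and unadjusted counts over 1092 to 4011, 956 to 2529, 9443 to 9858 and 1006 to 2616. Member counts ran over 0 in OIR, 0 after Ceapin-A7, 0 to 2 and 0 adjusted, and 1 to 2, 3 to 9, 0 to 2 and 0 to 3 unadjusted, and the cause of these shifts was not tested.

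Log2 fold changes that turned sign were near 0 or rested on 1 library. With 1 library left out, *Fos* ran from -0.30 to 0.31 in OIR (above 0 without *Atf6*+/+ OIR replicate 1 or *Atf6*-/- OIR replicates 2, 3 or 4) and from -0.28 to 0.23 between *Atf6*+/+ OIR and saline (below 0 without *Atf6*+/+ OIR replicate 1 or saline replicate 2). *Nr4a1* ran from -0.039 to 0.42 in OIR (below 0 without *Atf6*-/- OIR replicate 5), and *Fosl2* from -0.18 to 0.30 between *Atf6*+/+ OIR and saline (below 0 without *Atf6*+/+ OIR replicate 1 or saline replicate 2). For the difference of differences, *Fosl2* ran from -0.34 to 0.15 (above 0 without *Atf6*+/+ OIR replicate 1 or saline replicate 2), *Jun* from -0.21 to 0.034 (above 0 without *Atf6*+/+ OIR replicate 1, *Atf6*-/- OIR replicate 4 or saline replicates 1 or 2) and *Egr2* from -0.064 to 1.04 (below 0 without saline replicate 4). With several left out together, *Fos* was 0.057 in OIR without *Atf6*+/+ OIR replicate 1 and *Atf6*-/- OIR replicate 5, and -0.14 between *Atf6*+/+ OIR and saline without *Atf6*+/+ OIR replicate 1 and saline replicates 4 and 5. *Npas4* was 0.0043 after Ceapin-A7 without saline replicates 4 and 5, and without *Atf6*+/+ OIR replicate 1, *Atf6*-/- OIR replicate 5 and saline replicates 4 and 5 *Egr2* was -0.072 and *Junb* -0.0016 for the difference of differences. Quantile normalization put *Fosl2* at -0.0044 between *Atf6*+/+ OIR and saline. Without the 2 libraries farthest from its median, r with *Fos* turned in OIR for *Junb* (-0.145), *Egr2* (-0.525) and *Atf3* (-0.427), and in the injected libraries for *Fosl2* (-0.282), *Jun* (-0.12), *Junb* (-0.007), *Egr2* (-0.055), *Atf3* (-0.034) and *Npas4* (-0.339). The other member values, 232 of 239 in OIR, 238 of 239 after Ceapin-A7, 184 of 199 between *Atf6*+/+ OIR and saline and 290 of 299 for the difference of differences, kept their direction and side of the threshold. The share of higher genes at an unadjusted p up to 0.05 was 48.7% after Ceapin-A7 but 26.8% with equal sums, and 58.7% for the difference of differences but 39.8% with FPKM as deposited.

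Replicate numbers mark only a position in the labels: the correlation of the deviations of same-numbered libraries ran from -0.258 to 0.21 in OIR and from -0.217 to 0.31 after Ceapin-A7, and 1 library pair of 10 correlated best with its own number. With the replicate number as a block, 5 genes passed in OIR and 0 after Ceapin-A7, and no member did. At an unadjusted p up to 0.05 the block gave 3 members in OIR (*Jun*, *Fosl2* and *Egr1*) and 6 after Ceapin-A7, with *Jun* in place of *Egr1*. Over all genes the shares at that p under the block were 12.5% in OIR and 10.4% after Ceapin-A7. No batch or date is given in the sources used here. Depth matters least for the abundant members and most for *Egr2*, which is under 0.2 FPKM in every Ceapin-A7 library.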

Other observations

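In Ceapin-A7-treated retinas, replicate 1 was the lowest library for 6 of the 10 members, with a median deviation of -0.237 on the log2 scale, and replicates 3 and 4 were the highest for 4 members each. The Ceapin-A7 group was the tightest for the other immediate early genes too, with a median SD of 0.128 on the log2 scale over 35 genes beside 0.369 in the saline-treated group, 0.361 in *Atf6*+/+ OIR and 0.279 in *Atf6*-/- OIR, and for all genes the medians were 0.096, 0.139, 0.156 and 0.162 in the same order. The retinal gliosis genes did not follow this: their median SD was 0.576 after Ceapin-A7, 0.884 after saline, 0.555 in *Atf6*+/+ OIR and 0.492 in *Atf6*-/- OIR.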
